A study of Mus musculus with 13 samples.

Results

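Genes of sterol and fatty acid synthesis were followed through the chemical conversion of mouse fibroblasts into induced corneal endothelial cells, and 22 of 30 were lower at D7 than at the start. The 30 are among 54232 genes with an Ensembl ID in the expression table. Membership followed a fixed list of lipid genes known as targets or regulators of the sterol regulatory element binding proteins, matched by gene symbol. The list holds 18 enzymes from acetyl-CoA to cholesterol (Acat2, Hmgcs1, Mvk, Pmvk, Mvd, Idi1, Fdps, Fdft1, Sqle, Lss, Cyp51, Tm7sf2, Msmo1, Nsdhl, Hsd17b7, Ebp, Sc5d and Dhcr7). It also holds 4 regulators or carriers (Srebf1, Srebf2, Insig1 and Stard4) and 8 genes of fatty acid synthesis and desaturation (Acly, Acaca, Fasn, Elovl6, Scd1, Scd2, Fads1 and Fads2). All 30 were measured in all 13 libraries.

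RNA sequencing covered C57BL/6 mouse cells throughout. D7 (3 libraries) and D12 (2 libraries) are derived from embryonic fibroblasts and described by the submitters as induced neural crest cells. P1 and P8 (2 libraries each) are induced corneal endothelial cells from the same source, pCEC (1 library) is primary corneal endothelium from postnatal day 30, and D0 (3 libraries) is the starting material, mouse embryonic fibroblasts (MEFs, age E13.5). The labels do not name the small molecules, do not expand D7, D12, P1 and P8, and do not say whether libraries of a group came from separate cultures. Values are FPKM, fragments per kilobase of transcript scaled to library size. Summed over the genes placed, FPKM still ran from 595334 (D0 replicate 3) to 779417 (D12 replicate 2). Levels given as FPKM are therefore only roughly on 1 scale between libraries. Library totals ran from 9997865 reads (P1 replicate 2) to 24030674 reads (D0 replicate 2). The gene behind each value outside D0 was inferred from the line order of the table and from whole read counts.

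The library labelled P8 replicate 2 resembled D0 (Spearman's rho 0.928 to 0.929, against 0.76 with P8 replicate 1). It had 24.04 FPKM of 8 epithelial markers, 951 FPKM of 10 macrophage markers and 4072 FPKM of 7 fibroblast markers, while P8 replicate 1 had 8045, 60.3 and 67.2 FPKM. The P1 libraries held 7198 and 9292 FPKM of the epithelial markers, led by keratin genes, and pCEC held 3004 FPKM. The 8 corneal endothelial markers summed to 839 and 704 FPKM in P1, 789.8 FPKM in pCEC and 407 to 426 FPKM in D0, and in P1 against D0 3 of them were called higher and 1 lower. Of these markers, Col8a2 was at 0 to 0.299 FPKM in P1 and at 0.0619 FPKM in pCEC, and Slc4a11 was at 3.05 and 13.4 FPKM in P1 and at 6.63 FPKM in pCEC. In D7 and D12 the neural crest marker Foxd3 was at 0 and Sox10 at no more than 0.480 FPKM, while Twist1 was at 880 to 1136 FPKM. Of 7 neural crest markers tested in D7 against D0, 4 were called higher and 2 lower, against 11.3% and 11% of all genes. Those higher were Twist1, Tfap2a, Msx1 and Ngfr, and those lower were Sox10 and Sox9. In D12 against D0, 3 were called higher and 2 lower, against 11.5% and 11.8% of all genes. The D0 fibroblasts held 1185 to 1263 FPKM of macrophage markers. Results that rest on P8 are therefore given for each of its libraries.

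Cells make cholesterol from acetyl-CoA through mevalonate, farnesyl diphosphate, squalene and lanosterol, and they make long-chain fatty acids from the same precursor through malonyl-CoA. Both routes are driven by sterol regulatory element binding proteins, transcription factors encoded by Srebf1 and Srebf2 and made as precursors in the membrane of the endoplasmic reticulum. When membrane sterol is low, the escort protein Scap carries the precursors to the Golgi, where proteases release the active factor. When sterol is high, Insig proteins hold Scap back, and Insig1 is itself a target gene of the pathway. The corneal endothelium is a monolayer on the inner face of the cornea whose ion pumps keep the stroma clear.

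Promoter sequence is a feature of these genes that does not rest on the expression values. Of the 30 genes, 23 have a promoter entry in the RefSeq table (GRCm38.p6, 250 bases before to 50 bases after each start), and Fdps, Fdft1, Sqle, Stard4, Scd1, Scd2 and Fads1 are named only. Both strands were searched for the sterol regulatory element letters TCACNCCAC, for CCAAT, bound by nuclear factor Y, and for CACGTG, an E-box. No match of one motif overlapped a match of another. CCAAT stood in 19 of the 23 (82.6%), against 41.1% of 27025 genes with an entry. CACGTG stood in 4 of the 23 (17.4%), against 8.09% of all. TCACNCCAC stood in 1 of the 23 (4.35%), against 1.44% of all. By the call at D7, CCAAT was held by 13 of 17 members that fell and by all 6 with an entry that did not pass the test. A match is a run of letters and does not show that a factor binds there.

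The stretches that follow are of Hmgcs1, the holder of TCACNCCAC, of Insig1, Idi1, Cyp51 and Lss, which fell most at D7 among members with an entry and a CCAAT match, and of Ebp, which did not fall. The last 5 were chosen after their values were seen. Capitals mark the matches, with ATTGG as CCAAT on the other strand.
Hmgcs1 (chr13:119690169-119690267, plus strand, bases -182 to -84 from the start): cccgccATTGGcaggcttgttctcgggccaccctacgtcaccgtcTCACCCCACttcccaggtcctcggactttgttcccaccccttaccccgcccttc
Insig1 (chr5:28071181-28071331, plus strand, bases -231 to -81): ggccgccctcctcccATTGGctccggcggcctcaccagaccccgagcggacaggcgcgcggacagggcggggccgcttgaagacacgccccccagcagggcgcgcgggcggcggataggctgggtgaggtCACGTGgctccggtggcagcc
Idi1 (chr13:8885546-8885605, plus strand, bases -60 to -1): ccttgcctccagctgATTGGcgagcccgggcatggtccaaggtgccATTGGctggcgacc
Cyp51 (chr5:4104698-4104757, minus strand, bases -60 to -1): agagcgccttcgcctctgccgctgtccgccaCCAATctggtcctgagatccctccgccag
Lss (chr10:76531528-76531587, plus strand, bases -77 to -18): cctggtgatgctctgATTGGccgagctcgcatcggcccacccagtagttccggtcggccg
Ebp (chrX:8193548-8193697, minus strand, bases -185 to -36): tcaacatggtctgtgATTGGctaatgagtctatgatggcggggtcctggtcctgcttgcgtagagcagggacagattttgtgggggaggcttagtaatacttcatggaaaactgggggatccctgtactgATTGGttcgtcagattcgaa

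Summed over the 18 sterol enzymes, expression stood at 1178 to 1220 FPKM in D0, 366 to 373 FPKM in D7, 386 and 397 FPKM in D12, and 677 and 778 FPKM in P1. The same sum was 1231 FPKM in P8 replicate 1, 272 FPKM in P8 replicate 2 and 389 FPKM in pCEC. A single gene weighs much in some sums. Hsd17b7 gave 276 of the 778 FPKM in P1 replicate 1, 37.1 of the 677 FPKM in P1 replicate 2 and 197 FPKM in P8 replicate 1. Although its sum was larger, P1 replicate 1 was lower than P1 replicate 2 in 14 of the 18 enzymes. The 8 fatty acid genes summed to 1064 to 1129 FPKM in D0, 406 to 428 FPKM in D7, 423 and 526 FPKM in D12, and 464 and 612 FPKM in P1. They reached 421 and 372 FPKM in the P8 libraries and 328 FPKM in pCEC. The P8 libraries thus stood far apart in the sterol sum and close together in the fatty acid sum. In bulk RNA, fewer cells of a type and less RNA per cell cannot be told apart.

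**Figure D1:**
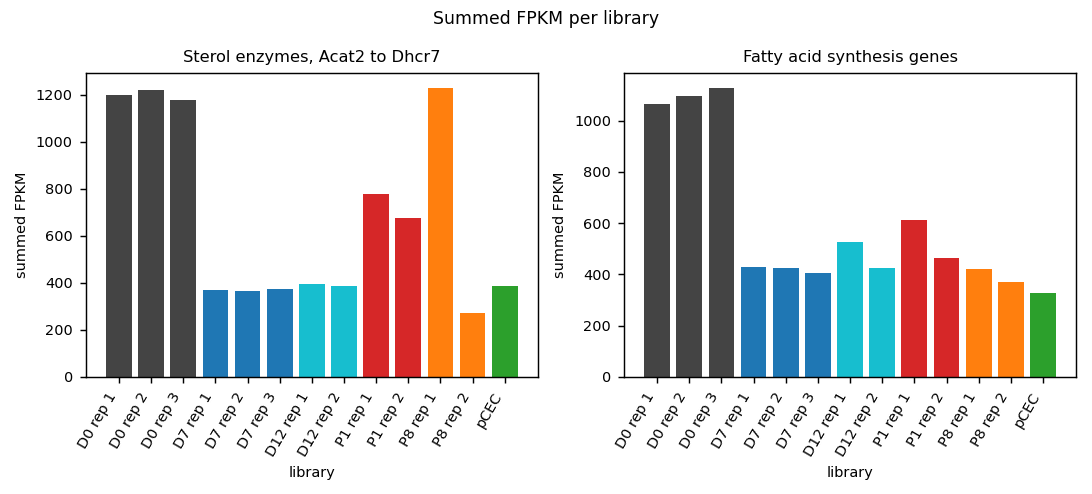
Summed FPKM of the 18 sterol enzymes (left) and of the 8 fatty acid genes (right), one bar per library, coloured by stage. The sterol sum is 366 to 373 FPKM in D7 and 1178 to 1220 FPKM in D0, and the P8 libraries stand at 1231 and 272 FPKM. Hsd17b7 alone gives 276 FPKM of the sterol sum in P1 replicate 1 and 37.1 FPKM in P1 replicate 2.

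Between D7 and D0, which asks what changed in the first stage of induction, 22 of the 30 genes were called lower and 0 higher. A call needed an adjusted p under 0.05 and a log2 fold change of at least 1 in size, by limma on log2(FPKM + 1). Across all 17147 genes tested, 11% were called lower and 11.3% higher. The median log2 fold change was -1.80 for the 30 genes and -0.00 for all genes. At an unadjusted p under 0.05, 24 genes were lower and 0 higher, and voom on recovered reads called 22 lower and 0 higher. The fall took in 5 of 7 genes of the mevalonate and isoprenoid steps, 2 of 3 of the squalene and lanosterol steps, 4 of 8 of the steps after lanosterol, all 4 regulators and carriers, and 7 of 8 fatty acid genes.

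**Figure D2:**
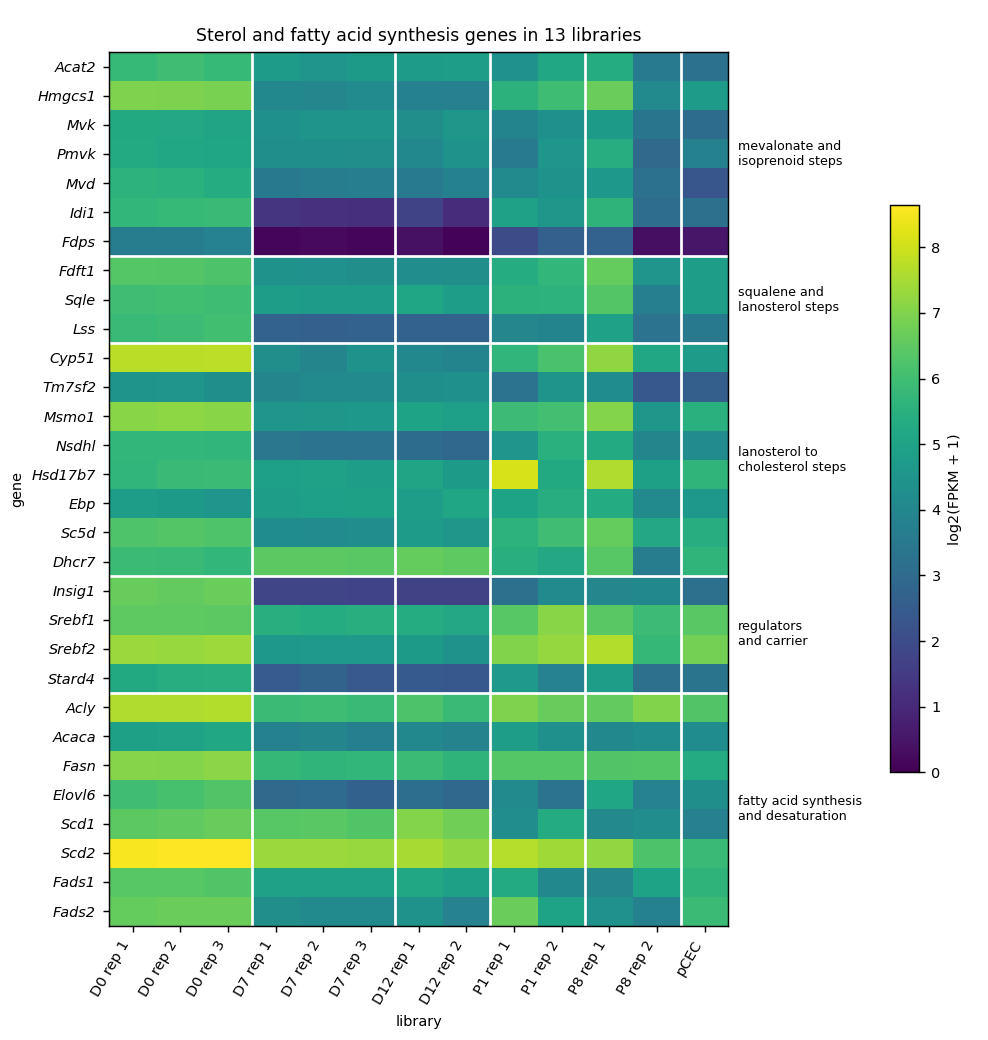
Heat map of log2(FPKM + 1) for the 30 genes (rows, grouped by role) in the 13 libraries (columns, ordered by stage). Of the 30 genes, 22 are called lower in D7 than in D0, while Dhcr7 and Ebp are above D0 in every D7 library.

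The regulators fell together. Insig1 (ENSMUSG00000045294, chr5:28071363-28078662 in GRCm38) had 2.53, 2.49 and 2.36 FPKM in D7, against 98.4, 94.8 and 101 FPKM in D0. The D7 level was 2.5% of the D0 mean, a log2 fold change of -4.84 (SE 0.21, limma adjusted p = 9.14e-07). Srebf2, the factor that acts mainly on sterol genes (ENSMUSG00000022463, chr15:82147181-82205379), had 23.4, 24.5 and 23.7 FPKM in D7, against 160.3, 158 and 164 FPKM in D0. Its log2 fold change was -2.70 (SE 0.38, limma adjusted p = 0.000594). Srebf1, the factor that acts mainly on fatty acid genes (ENSMUSG00000020538, chr11:60199089-60222581), had 42.4, 39.8 and 42.3 FPKM in D7, against 89.5, 89.4 and 88.1 FPKM in D0. It fell by 1.08 on the log2 scale (SE 0.18, limma adjusted p = 0.00165). Stard4, a soluble carrier that moves sterol between membranes, had 4.70, 5.68 and 4.37 FPKM in D7, against 37.0, 41.2 and 41.9 FPKM in D0, a log2 fold change of -2.80 (SE 0.38, limma adjusted p = 0.000492). In each of these genes every D7 library lay below every D0 library, as in 28 of the 30 genes and in 39.2% of all genes.

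Along the mevalonate route, Idi1, the isomerase of isopentenyl diphosphate, had the largest fall on the log2(FPKM + 1) scale (ENSMUSG00000058258, chr13:8885501-8892451). It had 1.55, 1.33 and 1.32 FPKM in D7, against 52.3, 54.3 and 55.1 FPKM in D0 (log2 fold change -4.52, SE 0.52, limma adjusted p = 0.000197). Fdps, which makes farnesyl diphosphate, had 0.0907, 0.176 and 0.0937 FPKM in D7, against 11.5, 11.8 and 13.1 FPKM in D0. Its D7 mean was 1.0% of its D0 mean, and that of Idi1 was 2.6%, so in FPKM itself Fdps fell further. These D7 values rest on 2 to 4 reads per library, against 259 to 333 reads in D0, and its log2(FPKM + 1) fold change of -3.55 (SE 0.49, limma adjusted p = 0.000576) understates the change of so low a gene. Transcripts of Fdps share 26.2% of their 50-base stretches with other genes, and those of Idi1 share 17.7%, so reads of both may be ambiguous. The gene that shares most with Fdps, Gm43738, overlaps 1124 of its 4208 exonic bases on the same strand. Hmgcs1, the synthase of hydroxymethylglutaryl-CoA (ENSMUSG00000093930, chr13:119690379-119708260), had 15.5, 14.9 and 17.1 FPKM in D7, against 125, 122 and 119 FPKM in D0. Its log2 fold change was -2.87 (SE 0.51, limma adjusted p = 0.00208). Mvd, the decarboxylase that makes isopentenyl diphosphate, averaged 11.2 ± 0.750 FPKM in D7 and 44.0 ± 3.74 FPKM in D0 (SD, n = 3 each). Acat2, the thiolase that joins 2 acetyl-CoA, was called lower at 24.7 ± 2.20 FPKM in D7 and 57.3 ± 4.67 FPKM in D0, and it lost the call in 10 of 24 alternatives. Acat2 shares 39.1% of its 50-base stretches with another gene, Acat3. The kinases Mvk and Pmvk did not pass the test, with 20.5 ± 1.27 and 18.6 ± 0.181 FPKM in D7 and 35.4 ± 2.65 and 35.6 ± 2.67 FPKM in D0. They stood at 58.1% and 52.3% of their D0 means. The spread of a gene was estimated over all groups, and that of Pmvk includes 40.4 and 6.95 FPKM in the P8 libraries.

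From squalene onwards some enzymes fell and others did not pass the test. Lss, which closes squalene epoxide into lanosterol (ENSMUSG00000033105, chr10:76531588-76557138), had 5.64, 5.31 and 5.57 FPKM in D7, against 57.2, 59.8 and 63.7 FPKM in D0 (log2 fold change -3.23, SE 0.34, limma adjusted p = 0.000111). Cyp51, the lanosterol demethylase (ENSMUSG00000001467, chr5:4081145-4104746), had 18.2, 14.3 and 20.1 FPKM in D7, against 213, 214 and 217 FPKM in D0 (log2 fold change -3.55, SE 0.42, limma adjusted p = 0.000233). The squalene synthase Fdft1, the methylsterol oxidase Msmo1, the dehydrogenase Nsdhl and the desaturase Sc5d also fell, with log2 fold changes of -1.96, -2.57, -2.38 and -2.08. Squalene epoxidase Sqle, at 26.3 ± 1.26 FPKM in D7 and 62.6 ± 1.33 FPKM in D0, missed the threshold (log2 fold change -1.22, SE 0.50, limma adjusted p = 0.0814). Each gene has 1 estimate of spread over all groups, and the Sqle estimate includes 78.5 and 12.4 FPKM in the P8 libraries.

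Among the late enzymes, 4 did not pass the test. Dhcr7, the reductase of the last step, had 88.3, 87.4 and 86.0 FPKM in D7, against 57.7, 56.1 and 51.8 FPKM in D0 (log2 fold change 0.65, SE 0.53, limma adjusted p = 0.368). Every D7 library lay above every D0 library, as in 37.5% of all genes. The sterol isomerase Ebp had 27.8, 28.6 and 29.1 FPKM in D7, against 26.9, 25.0 and 22.4 FPKM in D0 (limma adjusted p = 0.601). The sterol reductase Tm7sf2 averaged 15.7 ± 1.05 FPKM in D7 and 20.7 ± 1.63 FPKM in D0, and the ketosterol reductase Hsd17b7 averaged 28.5 ± 1.59 FPKM in D7 and 55.3 ± 3.64 FPKM in D0. Hsd17b7 was thus at 51.6% of its D0 mean. Its estimate of spread includes 276 and 37.1 FPKM in P1 and 197 and 29.1 FPKM in P8, so the missing call does not show that it was unchanged.

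Of the 8 fatty acid genes, 7 fell and Scd1 did not pass the test. Elovl6, an elongase of palmitate (ENSMUSG00000041220, chr3:129532355-129638495), had 6.86, 7.03 and 5.41 FPKM in D7, against 63.0, 68.4 and 76.96 FPKM in D0 (log2 fold change -3.25, SE 0.32, limma adjusted p = 8.13e-05). Fasn, the fatty acid synthase, averaged 51.5 ± 1.95 FPKM in D7 and 135 ± 4.98 FPKM in D0, and Acly, which makes cytosolic acetyl-CoA from citrate, averaged 58.8 ± 2.21 FPKM in D7 and 196 ± 2.04 FPKM in D0. Their log2 fold changes were -1.38 and -1.72, and those of the carboxylase Acaca and the polyunsaturated fatty acid desaturases Fads1 and Fads2 were -1.19, -1.42 and -2.50. Acaca shares 30.4% of its 50-base stretches with other genes. The stearoyl-CoA desaturases Scd1 and Scd2 are neighbours on chromosome 19 that introduce the same double bond. Scd2 (ENSMUSG00000025203, chr19:44293674-44306864) had 163, 163 and 157 FPKM in D7, against 375, 395 and 398 FPKM in D0 (log2 fold change -1.27, SE 0.22, limma adjusted p = 0.00206). Scd1 (ENSMUSG00000037071, chr19:44394455-44407879) had 84.1, 86.0 and 76.8 FPKM in D7, against 87.0, 90.9 and 97.8 FPKM in D0 (log2 fold change -0.16, SE 0.23, limma adjusted p = 0.649). The difference between the paralogs was not tested.

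**Figure D3:**
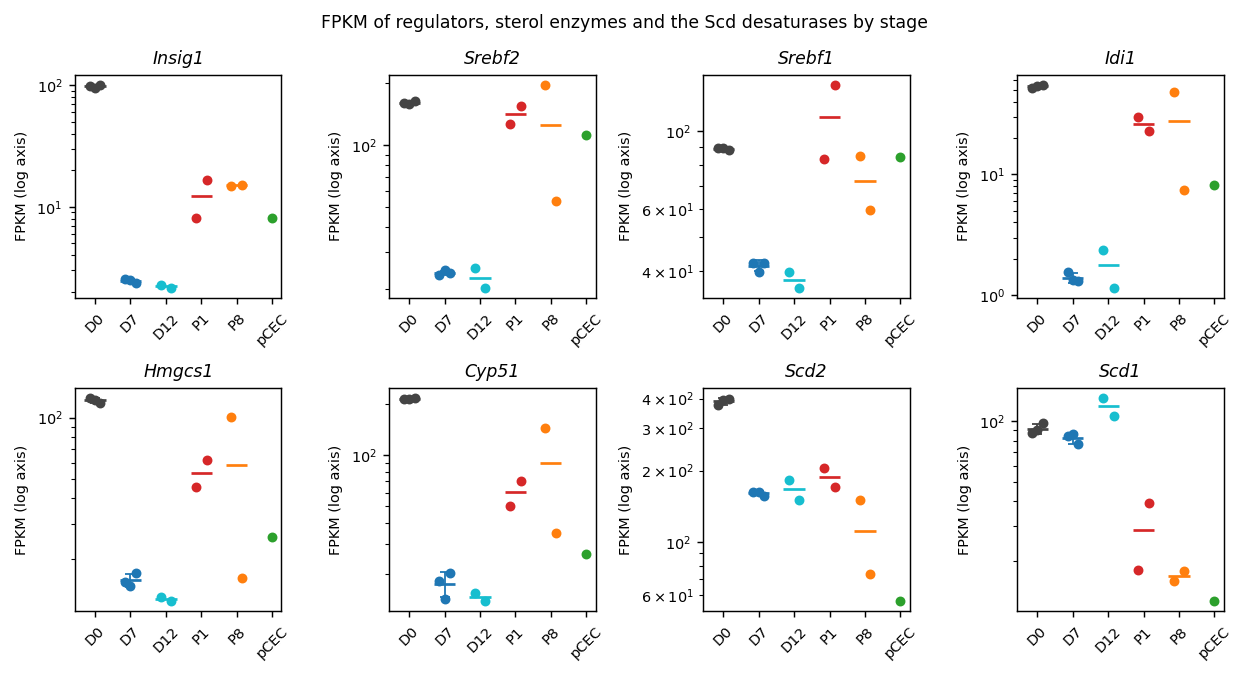
FPKM of 8 genes by stage on log axes, with 1 point per library, lines at group means and SD bars for the groups of 3 (D0 and D7). Insig1, Srebf2, Idi1, Hmgcs1 and Cyp51 are low in D7 and D12, while Scd1 is at 76.8 to 131 FPKM there and at 18.02 and 39.2 FPKM in P1.

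Marker lists of other cells moved in the same comparison. The 10 macrophage markers, all called lower, summed to 8.52 to 13.2 FPKM in D7 and 1185 to 1263 FPKM in D0, with C1qa, C1qc and Tyrobp at 0 in D7. The 7 fibroblast markers measured, of which 2 were called lower, summed to 3310 to 3327 FPKM in D7 and 22150 to 23067 FPKM in D0. Col1a1 and Col1a2, which weigh most in that sum, averaged 944 and 419 FPKM in D7 and 11473 and 5544 FPKM in D0, without a call. Of the 7, 5 had a log2 fold change below 0 and 2 above. Those 2, Pdgfra and Dcn, averaged 370 and 121 FPKM in D7 and 177 and 107 FPKM in D0. Of 14 proliferation genes, 11 were called lower, and the list summed to 160.0 to 164 FPKM in D7 and 396 to 417 FPKM in D0. Their part in the fall of the lipid genes was not tested.

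The D12 cells, set against the same D0 libraries, showed 21 of the 30 genes lower and 0 higher, where 11.8% of all genes were called lower and 11.5% higher. The median log2 fold change was -1.60 for the 30 genes and -0.02 for all. At an unadjusted p under 0.05, 23 were lower and 0 higher, and voom called 21 and 0. Insig1 had 2.27 and 2.15 FPKM in D12 (log2 fold change -4.95, SE 0.23, limma adjusted p = 1.96e-06). Idi1 had 2.39 and 1.15 FPKM (log2 fold change -4.35, SE 0.58, limma adjusted p = 0.000561), and Cyp51 had 15.5 and 13.8 FPKM (log2 fold change -3.79, SE 0.47, limma adjusted p = 0.00037). Fdps had 0.304 and 0.0545 FPKM, which are 6 and 1 reads (log2 fold change -3.48, SE 0.55, limma adjusted p = 0.00135). Srebf2 had 25.1 and 20.1 FPKM (log2 fold change -2.78, SE 0.42, limma adjusted p = 0.00109). Srebf1 had 39.8 and 35.9 FPKM (log2 fold change -1.21, SE 0.20, limma adjusted p = 0.0019). Scd2 had 183 and 150.5 FPKM (log2 fold change -1.23, SE 0.25, limma adjusted p = 0.0049) and lost the call without D12 replicate 2. Scd1 had 131 and 107 FPKM in D12, above each D0 library, with a log2 fold change of 0.36 (SE 0.26, limma adjusted p = 0.315). As in D7, the 10 macrophage markers were all called lower, at 10.4 to 14.9 FPKM in D12 and 1185 to 1263 FPKM in D0. Of the 7 fibroblast markers 2 were called lower (1891 to 2057 FPKM in D12 and 22150 to 23067 FPKM in D0), and of 14 proliferation genes 12 were (102 to 105 FPKM in D12 and 396 to 417 FPKM in D0). Of the fibroblast markers 5 had a log2 fold change below 0. Pdgfra and Dcn averaged higher, at 416 and 136 FPKM in D12 and 177 and 107 FPKM in D0. The part of these marker lists in the lipid differences was not tested.

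Between D12 and D7 no difference in any of the 30 genes passed the test. In limma 0 were called lower and 0 higher, 0 passed an unadjusted p under 0.05, and voom called 0 in either direction. Of all genes, 0.07% were called lower and 0.0758% higher. The spread of each gene was estimated over all groups, the P1 and P8 libraries among them. Fitting only the 2 groups compared called 81 of all genes lower and 65 higher, against 12 and 13. The log2 fold changes of the 30 genes ran from -0.35 (Nsdhl) to 0.52 (Scd1), with a median of 0.05. For Scd2, Srebf1, Srebf2 and Insig1 they were 0.04, -0.13, -0.08 and -0.11 (SE 0.25, 0.20, 0.42 and 0.23), with a limma adjusted p of 1 for these and for Scd1 (SE 0.26). Levels of some genes did not overlap. Msmo1 had 21.97 to 23.1 FPKM in D7 and 31.6 and 28.4 FPKM in D12. Scd1 had 76.8 to 86.0 FPKM in D7 and 131 and 107 FPKM in D12. Nsdhl had 8.69 to 9.68 FPKM in D7 and 7.34 and 6.44 FPKM in D12. Those of others, such as Scd2 and Srebf2, overlapped. With few libraries and a spread shared over all groups, the lack of calls does not show that the 30 genes were unchanged.

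In P1 cells, set against D12, 12 of the 30 genes were called higher and 1, Scd1, was called lower, where 15% of all genes were called higher and 12.7% lower. The median log2 fold change was 0.91 for the 30 genes and 0.12 for all genes. Each of the 12 genes had also been called lower in D7 against D0, and they make up 54.5% of those 22. Over all genes, 28.5% of those called higher in P1 against D12 had been called lower in D7 against D0, and these make up 38.9% of all genes lower in D7. The comparisons share no library, but both come from 1 fit with 1 spread per gene. The count of 12 was 5 without D12 replicate 2, 7 without D12 replicate 1 and 7 without P1 replicate 1. The 2 P1 libraries had a rho of 0.914.

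**Figure D4:**
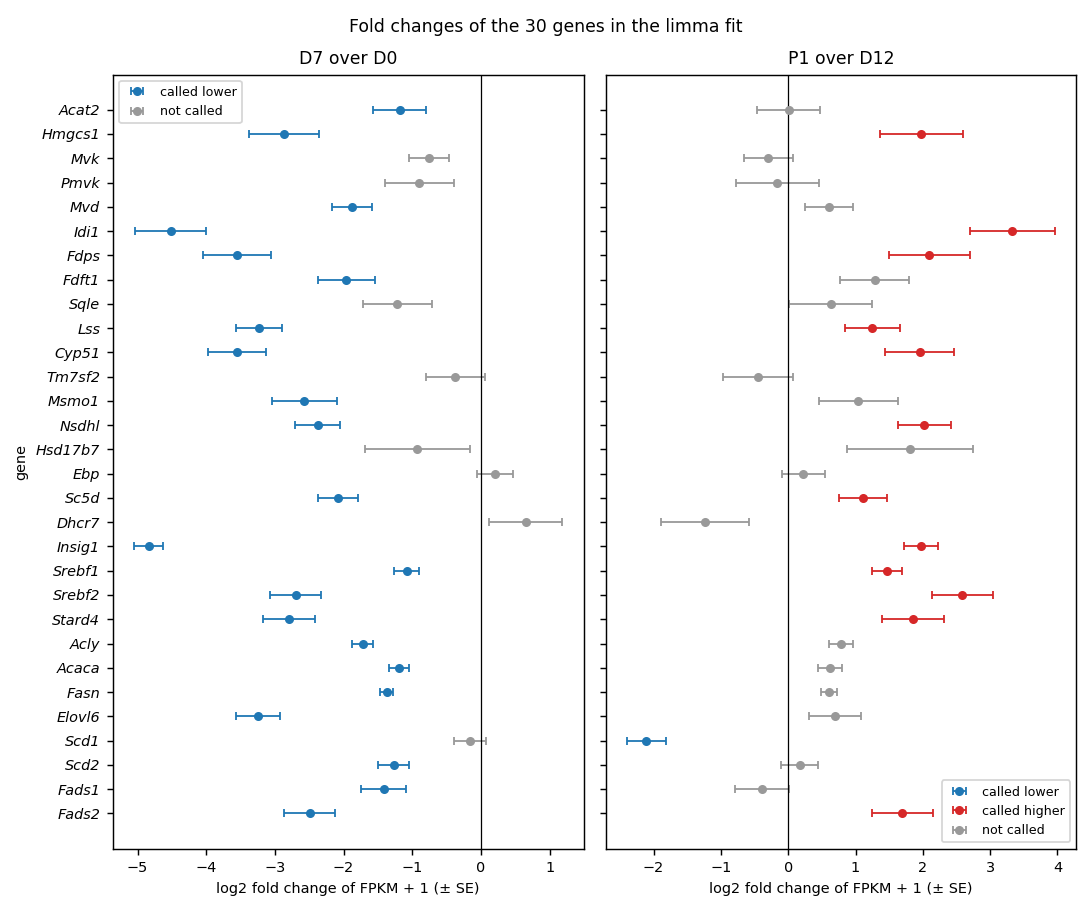
Log2 fold changes of FPKM + 1 with their standard errors for the 30 genes, D7 over D0 (left) and P1 over D12 (right), coloured by call. On the left 22 genes are called lower, and on the right 12 are called higher and Scd1 is called lower.

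All 4 regulators and carriers rose. Srebf2 had 126.9 and 155 FPKM in P1, against 25.1 and 20.1 FPKM in D12 (log2 fold change 2.59, SE 0.46, limma adjusted p = 0.00252). Srebf1 had 83.4 and 135 FPKM in P1, against 39.8 and 35.9 FPKM in D12 (log2 fold change 1.47, SE 0.22, limma adjusted p = 0.00116). Insig1 had 8.05 and 16.5 FPKM in P1, against 2.27 and 2.15 FPKM in D12 (log2 fold change 1.97, SE 0.26, limma adjusted p = 0.000509). Thus Srebf1 and Srebf2 stood at 122.9% and 87.8% of their D0 means in P1, and Insig1 at 12.5% of its own. Stard4 had 24.4 and 13.4 FPKM in P1, against 4.41 and 4.14 FPKM in D12.

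Of the sterol enzymes, 7 of 18 rose. Idi1 had 29.8 and 22.8 FPKM in P1, against 2.39 and 1.15 FPKM in D12 (log2 fold change 3.33, SE 0.64, limma adjusted p = 0.00359). Fdps had 3.01 and 5.28 FPKM in P1, against 0.304 and 0.0545 FPKM in D12 (log2 fold change 2.10, SE 0.60, limma adjusted p = 0.0215), or 80 and 62 reads against 6 and 1. Nsdhl had 22.2 and 43.3 FPKM in P1, against 7.34 and 6.44 FPKM in D12 (log2 fold change 2.02, SE 0.40, limma adjusted p = 0.00411). Hmgcs1 had 45.5 and 61.7 FPKM in P1, against 12.99 and 12.4 FPKM in D12 (log2 fold change 1.98, SE 0.62, limma adjusted p = 0.0309). Cyp51 had 50.1 and 70.5 FPKM in P1, against 15.5 and 13.8 FPKM in D12 (log2 fold change 1.95, SE 0.51, limma adjusted p = 0.0151). Lss and Sc5d also rose, by 1.25 and 1.11 on the log2 scale, and lost the call in 15 and 12 of 24 alternatives. Hsd17b7 split the P1 libraries, with 276 FPKM in replicate 1 and 37.1 FPKM in replicate 2, against 31.9 and 25.1 FPKM in D12, and did not pass the test. Dhcr7, which like Ebp lay above D0 in every D7 library, had 41.3 and 36.4 FPKM in P1, against 96.5 and 88.9 FPKM in D12 (log2 fold change -1.23, SE 0.65, limma adjusted p = 0.154).

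Of the 8 fatty acid genes, 1 rose and 1 fell, about as often as all genes did (15% higher and 12.7% lower). Scd1 had 18.02 and 39.2 FPKM in P1, against 131 and 107 FPKM in D12 (log2 fold change -2.11, SE 0.29, limma adjusted p = 0.000627). Its paralog Scd2 had 205 and 171 FPKM in P1, against 183 and 150.5 FPKM in D12 (log2 fold change 0.17, SE 0.27, limma adjusted p = 0.639). Fads2 was called higher at 100.4 and 31.0 FPKM in P1, against 20.5 and 13.3 FPKM in D12. Fasn, Acaca and Acly passed the adjusted p but not the fold limit, with log2 fold changes of 0.60, 0.62 and 0.79. Epithelial markers changed beside these genes: 7 of 8 were called higher, and their sum was 7198 and 9292 FPKM in P1 and 19.2 and 26.2 FPKM in D12. The neural crest list summed to 94.9 and 98.2 FPKM in P1 and 1084 and 1192 FPKM in D12, mostly from Twist1, which averaged 8.19 FPKM in P1 and 1084 FPKM in D12. Of 7 neural crest genes tested, 4 were called lower and 1 higher, Sox9, which averaged 66.2 FPKM in P1 and 0.482 FPKM in D12. The proliferation genes, 0 of 14 called higher and 1 lower, split the P1 libraries at 324 and 65.5 FPKM, against 102 and 105 FPKM in D12. Their part in the lipid differences was not tested.

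Against D0, P1 cells had 9 of the 30 genes lower and 0 higher, where 8.4% of all genes were called lower and 11.1% higher. At an unadjusted p under 0.05, 15 were lower and 0 higher, and voom called 9 and 0. The count of 9 became 16 when both P8 libraries, or either of them, were left out of the shared spread. Insig1 had 8.05 and 16.5 FPKM in P1, against 98.4, 94.8 and 101 FPKM in D0 (log2 fold change -2.98, SE 0.23, limma adjusted p = 8.35e-05). Elovl6 had 16.2 and 8.83 FPKM in P1, against 63.0, 68.4 and 76.96 FPKM in D0 (log2 fold change -2.43, SE 0.36, limma adjusted p = 0.00173). Lss had 15.04 and 13.9 FPKM in P1, against 57.2, 59.8 and 63.7 FPKM in D0 (log2 fold change -1.98, SE 0.38, limma adjusted p = 0.00568). Cyp51 had 50.1 and 70.5 FPKM in P1, against 213, 214 and 217 FPKM in D0 (log2 fold change -1.83, SE 0.47, limma adjusted p = 0.0189). Scd1 was lower, at 18.02 and 39.2 FPKM in P1, against 87.0, 90.9 and 97.8 FPKM in D0 (log2 fold change -1.75, SE 0.26, limma adjusted p = 0.00189). Scd2 was lower as well, at 205 and 171 FPKM in P1, against 375, 395 and 398 FPKM in D0 (log2 fold change -1.05, SE 0.25, limma adjusted p = 0.0143), as were Mvk, Mvd and Fads1. Neither factor gene passed the test. Srebf1 had 83.4 and 135 FPKM in P1, against 89.5, 89.4 and 88.1 FPKM in D0 (log2 fold change 0.25, SE 0.20, limma adjusted p = 0.374). Srebf2 had 126.9 and 155 FPKM in P1, against 160.3, 158 and 164 FPKM in D0 (log2 fold change -0.19, SE 0.42, limma adjusted p = 0.762). Marker lists moved here too. Of the macrophage markers 8 of 10 were called lower (20.8 and 27.0 FPKM in P1, 1185 to 1263 FPKM in D0), of the fibroblast markers 4 of 7 (472 and 1094 FPKM in P1, 22150 to 23067 FPKM in D0), and all 8 epithelial markers were called higher (7198 and 9292 FPKM in P1, 11.3 to 13.6 FPKM in D0). Their part in the lipid differences was not tested.

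Between P8 and P1 limma called 0 of the 30 genes in either direction, where 0.869% of all genes were called lower and 0.268% higher. At an unadjusted p under 0.05, Srebf1, Scd2, Acaca and Fads2 were lower and 0 were higher, and voom called 0 in either direction. For Insig1, Srebf1, Srebf2, Scd1 and Scd2 the log2 fold changes were 0.36, -0.57, -0.45, -0.63 and -0.83 (SE 0.26, 0.22, 0.46, 0.29 and 0.27, limma adjusted p = 0.502, 0.267, 0.642, 0.328 and 0.194). The P8 libraries lay on opposite sides of the P1 mean in the 18 sterol enzymes. In P8 replicate 1, Tm7sf2, Nsdhl, Hsd17b7 and Ebp lay between the P1 libraries. Set against the P1 mean, the median log2 difference of the 30 genes was 0.53 in P8 replicate 1 and -1.05 in P8 replicate 2. That of all genes was -0.08 for each. A fit with 1 P8 library left would assume that it varies like the other groups, so no call is given for either library.

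P8 replicate 1, which carries epithelial markers as P1 does, stood above the P1 mean in all 18 sterol enzymes, by a median of 0.82 on the log2 scale (all genes -0.08). It stood below the P1 mean in 7 of 8 fatty acid genes, by a median of -0.43. Over the 30 genes, 7 were at least 1 higher and 1 was at least 1 lower, against 5.23% and 7.97% of all genes. Cyp51 had 145 FPKM in P8 replicate 1, against 50.1 and 70.5 FPKM in P1, and Hmgcs1 had 101 FPKM, against 45.5 and 61.7 FPKM in P1. Fads2 had 19.8 FPKM in P8 replicate 1, against 100.4 and 31.0 FPKM in P1. The proliferation genes summed to 484 FPKM in P8 replicate 1 and 205 FPKM in P8 replicate 2, against 324 and 65.5 FPKM in P1, and their part in these differences was not tested. Single libraries carry no test.

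The library labelled P8 replicate 2, which lacks epithelial markers, stood below the P1 mean in all 18 sterol enzymes, by a median of -1.14 (all genes -0.08), and in 5 of 8 fatty acid genes, by a median of -0.20. Of the 30 genes, 18 were at least 1 lower and 0 at least 1 higher, against 15.1% and 11.4% of all genes. It also lay below every D0 library in 30 of 30 genes, as 41.1% of all genes did, with a median difference of -2.18 from the D0 mean. Of the 30, 24 were at least 1 lower and 0 at least 1 higher, against 6.65% and 6.89% of all genes. Idi1 had 7.48 FPKM there, against 52.3, 54.3 and 55.1 FPKM in D0, and Srebf2 had 53.2 FPKM, against 160.3, 158 and 164 FPKM in D0. Insig1 was close in both P8 libraries, at 14.98 and 15.2 FPKM, against 8.05 and 16.5 FPKM in P1. Fasn was also close, at 77.3 and 79.1 FPKM in P8, against 81.8 and 80.6 FPKM in P1. Scd1 had 15.9 and 17.8 FPKM in P8, against 18.02 and 39.2 FPKM in P1, and Scd2 had 150.1 and 73.5 FPKM, against 205 and 171 FPKM in P1.

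**Figure D5:**
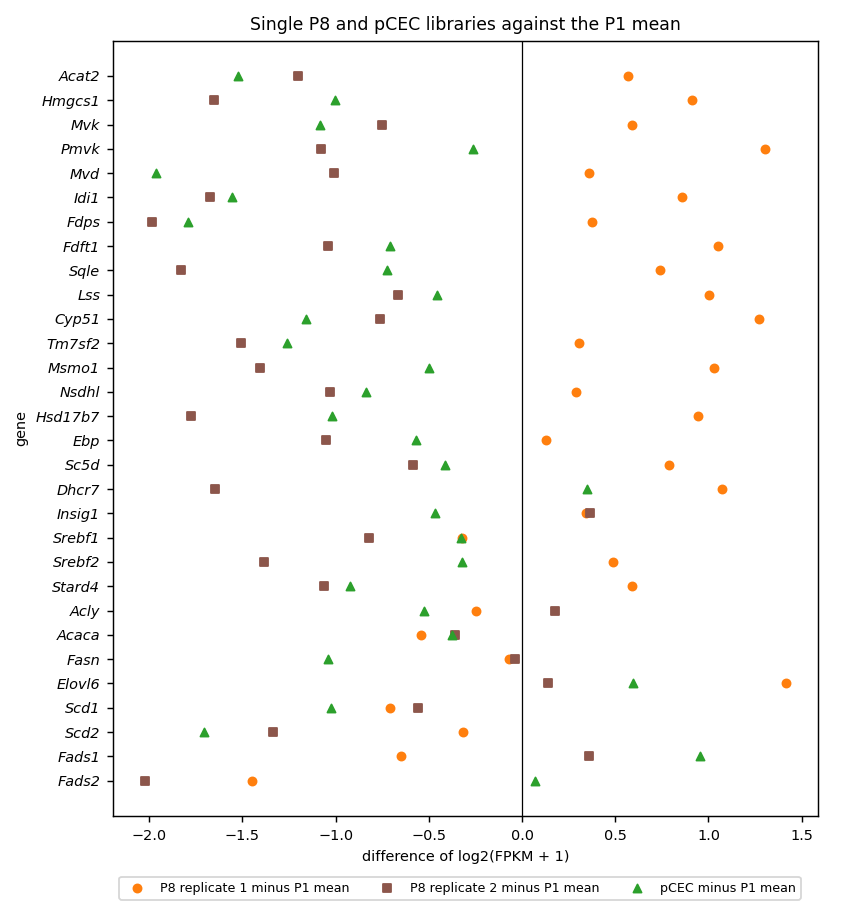
Difference of log2(FPKM + 1) from the P1 mean for the 30 genes in P8 replicate 1 (circles), P8 replicate 2 (squares) and pCEC (triangles), with 1 library each and no test. All 18 sterol enzymes lie right of 0 for P8 replicate 1 and left of 0 for P8 replicate 2.

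Primary corneal endothelium, a single library without a test, stood below the D0 mean in all 30 genes and below every D0 library in 29 (38.7% of all genes). Of the 30, 21 were at least 1 lower on the log2 scale and 0 at least 1 higher, against 14.7% and 18.0% of all genes. Against the P1 mean, 12 were at least 1 lower and 0 at least 1 higher (7.31% and 5.7% of all genes), with a median of -0.72. Insig1 had 8.11 FPKM in pCEC, against 8.05 and 16.5 FPKM in P1, and Srebf2 had 112 FPKM, against 126.9 and 155 FPKM in P1. Srebf1 had 84.6 FPKM in pCEC, against 83.4 and 135 FPKM in P1. Mvd had 3.93 FPKM in pCEC, against 16.1 and 20.5 FPKM in P1. Scd2 had 56.7 FPKM in pCEC, against 205 and 171 FPKM in P1, and Scd1 had 12.6 FPKM, against 18.02 and 39.2 FPKM. Dhcr7 was at 49.7 FPKM in pCEC, against 41.3 and 36.4 FPKM in P1, and Fads1 was at 47.9 FPKM, against 38.2 and 15.2 FPKM.

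Other genes of the pathway, taken from separate lists, were measured in the same fit. Of 16 further sterol genes, 9 were lower and 2 higher in D7 against D0, where 11% of all genes were called lower and 11.3% higher. Lbr, the lamin B receptor, which also has sterol reductase activity, averaged 7.37 ± 0.917 FPKM in D7 and 26.4 ± 2.42 FPKM in D0 (SD, n = 3 each). Aacs, the acetoacetyl-CoA synthetase that supplies carbon to sterol synthesis, averaged 63.9 ± 1.02 FPKM in D7 and 165 ± 3.25 FPKM in D0. Npc1, the lysosomal membrane protein that exports cholesterol, averaged 13.502 ± 0.962 FPKM in D7 and 32.5 ± 2.45 FPKM in D0. All 3 were called lower, with log2 fold changes of -1.71, -1.36 and -1.21. In P1 against D12, 5 of the 16 were higher and 2 lower, where 15% of all genes were called higher and 12.7% lower. Npc1 and Lbr were among those higher, with log2 fold changes of 1.38 and 1.08. Aacs did not pass the test there (log2 fold change -0.04). Scap and the lysosomal sterol carrier Npc2 ran the other way, with log2 fold changes of 1.76 and 1.11 in D7 against D0 and of -1.38 and -1.58 in P1 against D12. A count of 2 among 16 is near the share of all genes called in those directions.

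Further fatty acid and glycerolipid genes showed 3 lower and 3 higher of 17 tested in D7 against D0, with a median log2 fold change of 0.34, where 11% of all genes were lower and 11.3% higher. The elongation cycle dehydratase Hacd3 and the malic enzyme Me1 were higher, by 1.81 and 1.21, and the acyltransferase Gpam and the acyl-CoA synthetase Acsl3 were lower, with log2 fold changes of -1.30 and -1.27. Among 10 sterol efflux genes, 3 were lower and 1 higher. Apoe, the lipoprotein component that macrophages also express, averaged 52.2 ± 5.16 FPKM in D7 and 855 ± 78.1 FPKM in D0. Cyp27a1, a sterol hydroxylase, was higher by 1.67. Of 14 fatty acid oxidation genes tested, 2 were higher, a share near the 11.3% of all genes, and 0 lower, Pdk4 by 1.94 and Hadhb by 1.66 on the log2 scale.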

How the data were processed

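The table deposited by the authors holds FPKM values for 13 mouse RNA-seq libraries. Per the labels' protocols, RNA was taken with Trizol and libraries were made with an Illumina TruSeq kit. Builds mm10 and mm8 and the aligner Bowtie 0.12.2 appear in the submitters' processing notes without roles. The gene IDs in the table match the D0 columns alone. For the other groups each line's gene was inferred from the line order, which follows a hash table of 131072 slots, and from whole read counts (FPKM times GENCODE M21 length, tolerance 0.0001). Expression levels were not used for this. The table has 54603 lines. Of 54232 genes with an Ensembl ID, 52587 were resolved, 1568 were not and 77 were set aside. With the D0 IDs hidden, 99.9752% to 100% of placed D0 values went to the right gene. Among D0 genes reaching 1 FPKM, 98.9% to 99.7% were recovered, and 92.4% to 93.8% among those given no checked length. For 1160 genes, among them Tm7sf2, Acat2, Scd1, Scd2, Fads1 and Fads2, the length was set on D0 values. All 30 genes gave whole reads in every group (largest distance 6e-06 reads), and 29 had at least 21 reads in each library. Outside D0 whole reads were a condition of the placement, and lengths set on D0 were chosen to give them there. The whole reads of the 30 genes are therefore no separate check of their placement.

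Tests used limma 3.58.1 in R 4.3.3 on log2(FPKM + 1), with 1 mean per group, all 13 libraries, a trended prior and 7 residual degrees of freedom. The pseudocount of 1 understates changes of low genes. The 17147 genes with 1 library at 1 FPKM or more were tested, with Benjamini-Hochberg adjustment over all of them. Counts at an unadjusted p are given for the 30 genes only, without the share of all genes at that threshold. The code was tested on simulated data. Tables were made with Python 3.11.15. pCEC and single P8 libraries carry no test. Labels do not say whether replicates are separate cultures, so the p-values reflect variation among libraries that could be technical. All 30 genes are named. Full values are given for the 8 largest called changes in D7 against D0 and P1 against D12, the 4 largest elsewhere, and test values in each tested comparison for Scd1, Scd2, Srebf1, Srebf2 and Insig1. Of the further sterol genes some are not reported here by name, and those named in their place were chosen after their values were seen. The genes and lists were chosen with earlier results of these data known. No per-sample column was left unused. Whether the authors counted by strand is not given in the sources used here.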

Additional observations from a re-analysis of the deposited data

How the results depend on the processing

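Of 65 calls among the 30 genes, 48 held in each of 24 alternatives, 17 were lost in at least 1 and 0 reversed. The calls that held were 21 of 22 in D7 against D0, 16 of 21 in D12 against D0, 6 of 13 in P1 against D12 and 5 of 9 in P1 against D0. In P1 against D12 those lost were Lss, Sc5d, Hmgcs1, Fdps, Cyp51, Fads2 and Stard4. With 1 library left out, the count lower ran from 21 to 23 in D7 against D0 and from 16 (without D12 replicate 2) to 23 in D12 against D0. In P1 against D12 it ran from 5 to 14 for genes higher and from 1 to 2 for genes lower, and in P1 against D0 from 6 to 16 lower. For P8 against P1 the change without either P8 library is given below as a median. Fitting only the 2 groups compared, or leaving out both P8 libraries, gave 2 lower in P1 against D12 and 16 lower in P1 against D0; the cause was not tested. Without P8 replicate 1 and without P8 replicate 2, the median of the 30 genes in P8 against P1 was -1.05 and 0.53. Quantile normalization moved the median of all genes in P1 against D12 to -0.01, where it was 0.12 as deposited, and that of the 30 genes to 0.93.

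Over all genes, counts moved by more than 1.5 times. A pseudocount of 5 gave 887 lower and 1184 higher in D7 against D0, and no limit on the fold change gave 3436 and 3593, against 1884 and 1941. Over all alternatives, genes lower ran from 952 to 3342 in D12 against D0 and from 0 to 81 in D12 against D7. They ran from 1415 to 3362 in P1 against D12, from 812 to 2170 in P1 against D0 and from 0 to 2041 in P8 against P1. Genes higher ran from 1227 to 3308, 0 to 65, 1339 to 3690, 1237 to 2805 and 0 to 1780 in the same comparisons.

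Deviations of 21 same-numbered pairs correlated from -0.234 to 0.177, with 2 over 0.1, both of D12 with P1. In a group of 2 libraries the deviations mirror each other, so these 2 are 1 value. Deviations in groups this small cannot show whether replicate numbers pair the libraries. With the replicate block, 21 genes were lower in D7 against D0, 20 in D12 against D0 and 7 in P1 against D0, and 9 were higher and 1 lower in P1 against D12. The D12 Fdps values rest on 6 and 1 reads, so depth limits its level there.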
